A study of Mus musculus with 12 samples.

Results

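Ribosome footprints were set against mRNA, gene by gene, in untreated (basal) RAW264 cells, a mouse macrophage line. The comparison used 4 of the 12 libraries of the series: 2 libraries of ribosome-protected fragments (RPF) and 2 libraries of polyA mRNA. The other 8 libraries came from cells exposed during 30 min to LPS (lipopolysaccharide, from the outer membrane of bacteria) at 100 ng/ml, alone or together with 10 µM dexamethasone (DEX), an anti-inflammatory steroid. All cells, basal ones included, were incubated with cycloheximide at 100 µg/ml before extraction, and the series describes its replicates as independent and biological. Of 9621 listed genes, 9308 (96.7%) averaged at least 10 reads over the 4 basal libraries, at the median depth of the 12 libraries, and were tested.

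Ribosome profiling sequences the short mRNA pieces that a ribosome shields from nuclease, so the number of footprints on an mRNA follows how many ribosomes translate it. The ratio of footprints to mRNA, the translational efficiency (TE), is a relative measure of ribosome load on an mRNA. Reads are not scaled by length here, and mRNA reads can also grow with transcript length. TE values of different genes are therefore not counts of ribosomes per mRNA molecule. Cycloheximide holds cytosolic ribosomes in place, and it does not act on the ribosomes inside mitochondria. Known layers of control act on TE: a pyrimidine-rich 5′ end on mRNAs of the translation machinery, hairpins that bind iron regulatory proteins, upstream reading frames, and programmed frameshifts or recoded stop codons.

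TE is given here as log2(RPF/mRNA) of the deposited values (CPM, reads of a gene scaled to a common library total, plus 1), less its median over the 9308 genes. That median was 0.21 before it was subtracted, so each TE is relative to the median gene. Errors are standard errors (SE) from limma, n = 2 RPF and 2 mRNA libraries, and a gene passed at a Benjamini-Hochberg adjusted p under 0.05 over all genes tested. The RPF libraries held 1310291 and 1520612 reads and the mRNA libraries 1475120 and 1847359 reads. The 2 RPF libraries had a Spearman correlation of 0.970 across genes, and the 2 mRNA libraries one of 0.828.

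The mRNA library of basal replicate 1 stands apart, and results are therefore also given without it. That fit holds only 1 basal mRNA library, so the spread of basal mRNA is then borrowed from the other groups. Calls made without replicate 1 thus show how far a result leans on that library, and are not a replicated test. In that library 81 genes had at least 50 CPM while lying at or under 5 CPM in every other mRNA library. With all libraries, 12 of these 81 passed as lower in TE and 1 as higher, against 23.3% and 26.9% of all genes tested. All 13 macrophage markers were above 0 in the 4 libraries, with sums of 8323 and 9025 CPM in RPF and 6127 and 6569 CPM in mRNA. Of 28 markers of other cell types, 3 are listed (Krt7, Ddr1 and Col3a1). Their sums were 176 and 139 CPM in the RPF libraries, against 2035 CPM in mRNA replicate 1 and 18.4 CPM in mRNA replicate 2. Krt7 had 0.763 and 1.97 CPM in RPF, and 1108 and 0 CPM in mRNA replicates 1 and 2. For Ddr1 the values were 32.8 and 22.4 CPM in RPF and 923 and 2.17 CPM in mRNA. Col3a1 was higher in RPF, at 142 and 115 CPM, than in mRNA, at 3.39 and 16.2 CPM. A wider list of 16 macrophage genes had 8 higher and 2 lower in TE (median 0.29), or 5 higher and 3 lower without mRNA replicate 1 (median 0.14), and the 4 tested genes listed for other types had 1 higher and 0 lower (median -1.51, and 1.86 without mRNA replicate 1). Fewer cells of a type and less RNA per cell cannot be told apart in such bulk samples.

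TE was widely spread in resting cells. Footprints passed as higher than mRNA for 2502 genes (26.9% of those tested) and as lower for 2167 (23.3%), 50.2% in either direction. The remaining 4639 did not pass. Every list count below is to be read against these shares of all genes. Without centring the split was 3132 higher and 1603 lower. The SD of TE over genes was 1.40, with quartiles at -0.68 and 0.68, and 353 genes passed as higher and 449 as lower with a difference of over 4-fold. Without mRNA replicate 1, 2106 genes (22.6%) passed as higher and 1819 (19.5%) as lower. Of the calls made with all libraries, 1990 higher and 1674 lower ones were kept without it, and 0 changed sign. The RPF and mRNA libraries did not overlap after centring for 3591 genes on the higher side (38.6%) and 3407 on the lower side (36.6%).

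**Figure D1:**
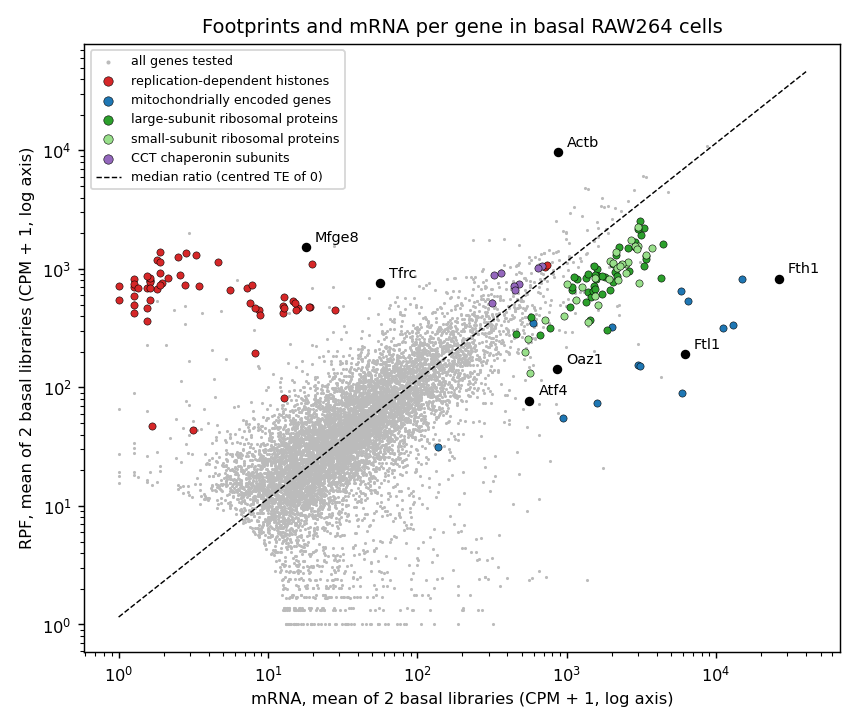
Mean RPF value against mean mRNA value of each of the 9308 tested genes in basal cells (CPM + 1, log axes, 2 libraries each); the dashed line is the median ratio. Histone genes lie far above the line, and mitochondrially encoded genes, ribosomal protein genes, Fth1 and Ftl1 lie below it.

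The ribosomal proteins, the building blocks of the ribosome itself, had low TE throughout. All 47 tested proteins of the large subunit and all 31 of the small subunit passed as lower, against 23.3% of all genes, and all 78 also passed without mRNA replicate 1. The median TE was -1.18 for the large subunit, ranging from -2.81 to -0.50, and -1.31 for the small subunit. The large-subunit genes held 4.48% and 4.66% of the reads in the RPF libraries, against 8.95% and 9.57% in the mRNA libraries. The 78 genes did not overlap between RPF and mRNA libraries, against 36.6% of all genes on that side. Many have pseudogenes that can share their reads.

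Within the family, Rplp1 and Rplp0 of the stalk, which recruits elongation factors to the ribosome, had the lowest values among the large-subunit members. Rplp1 had 304 and 306.5 CPM in RPF, against 1802 and 1924 CPM in mRNA (TE -2.81 ± 0.09 SE, limma adjusted p = 5.29e-11). For Rplp0, which anchors the stalk, the values were 788 and 897 CPM in RPF and 3987 and 4508 CPM in mRNA (TE -2.54 ± 0.10, limma adjusted p = 2.25e-10). Both genes had every RPF library below every mRNA library. The third stalk protein, Rplp2, lay near the large-subunit median, at 1537 and 1532 CPM in RPF and 2885 and 2861 CPM in mRNA (TE -1.11 ± 0.08). In the small subunit, Rps27 was lowest, at 128 and 133 CPM in RPF and 496 and 640.4 CPM in mRNA (TE -2.31 ± 0.13). At the other end, Rpl4 had 2468 and 2579 CPM in RPF, against 2985 and 3190.0 CPM in mRNA (TE -0.50 ± 0.10, limma adjusted p = 0.00101). The family thus moved in 1 direction, with a wide range among the large-subunit members.

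Ribosomal protein mRNAs are known to begin with a C followed by a run of pyrimidines, the 5′ terminal oligopyrimidine (TOP) motif, through which their translation is held back when growth signals are low. RefSeq promoters (GRCm38.p6) were found for 57 of the 78 genes. A run of at least 8 bases of C or T that starts with C was found in the 50 bases after the annotated start in 38 of them (66.7%), against 14.8% of 7165 tested genes with a promoter. On the other strand the shares were 8.77% and 18.7%. The length of 8 and the window were chosen after shares at lengths of 6 to 10 had been seen; over those lengths the share ran between 45.6% and 80.7% of ribosomal protein genes, against 6.53% to 34.1% of all. A match is a description of the letters and not a mapped transcript start. The stretches below are those of the 3 lowest and the 3 highest TE among ribosomal protein genes with a run, 5′ to 3′ on the strand of the gene, with the run in capitals, and members with no run or no promoter entry are not among them.
Rps12 (chr10:23787181-23787210, minus strand, TE -2.16): caccgccggCCTTTTCCCCTgccgccgccg
Rpl12 (chr2:32961732-32961761, plus strand, TE -2.16): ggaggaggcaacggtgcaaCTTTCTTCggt
Rpl31 (chr1:39367871-39367900, plus strand, TE -1.85): cggctacgcgaCTTTCCCTCCCacaaaccc
Rpl41 (chr10:128549119-128549148, minus strand, TE -0.83): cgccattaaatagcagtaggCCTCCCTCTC
Rpl37 (chr15:5116632-5116661, plus strand, TE -0.73): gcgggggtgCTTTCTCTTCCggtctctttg
Rpl4 (chr9:64173406-64173435, plus strand, TE -0.50): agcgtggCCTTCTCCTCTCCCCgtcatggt

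The run of 15 bases in Rpl4, the ribosomal protein gene with the highest TE, was the longest of the 6 within the window. The run of Rpl41 ends at the edge of the window and may go on beyond it. Ribosomal protein genes with a run had a median TE of -1.31 (38 genes) and those without one of -1.09 (19 genes). Among all other tested genes the medians were 0.08 with a run (1024 genes) and 0.01 without (6084 genes).

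Other mRNAs listed as carrying a TOP motif, among them elongation factors, initiation factor subunits and Npm1, lay on both sides. Of 21 tested, 7 passed as higher and 9 as lower, against 26.9% and 23.3% of all genes, with a median of 0.10 (-0.04 without mRNA replicate 1). Eef1a1, which delivers aminoacyl-tRNA to the ribosome, had 10450 and 11310 CPM in RPF and 8357 and 8948 CPM in mRNA (TE 0.12 ± 0.08, limma adjusted p = 0.19). Tpt1, the translationally controlled tumour protein, had 1110 and 1173 CPM in RPF, against 2933 and 3229 CPM in mRNA (TE -1.64 ± 0.11, limma adjusted p = 7.28e-08). The poly(A) binding protein Pabpc1 (TE -1.23 ± 0.17) and the exchange factor subunit Eef1b2 (TE -1.21 ± 0.09) also passed as lower. Eif2s3x, a subunit of the factor that brings the initiator tRNA, lay at the other extreme with 308 and 267 CPM in RPF and 60.3 and 59.0 CPM in mRNA (TE 2.04 ± 0.18).

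Of 36 initiation factors tested, 11 passed as higher and 10 as lower, with a median of 0.06, shares close to the 26.9% and 23.3% of all genes. The large scaffold subunits of eIF3 were high, with Eif3a at a TE of 1.55 ± 0.16 and Eif3c at 1.13 ± 0.11. Eif1, which guards start codon choice, had 208 and 186 CPM in RPF and 430.5 and 494 CPM in mRNA (TE -1.43 ± 0.12, limma adjusted p = 4.67e-07). Eif4ebp1, an inhibitor of cap binding, had a TE of -1.45 ± 0.22.

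**Figure D2:**
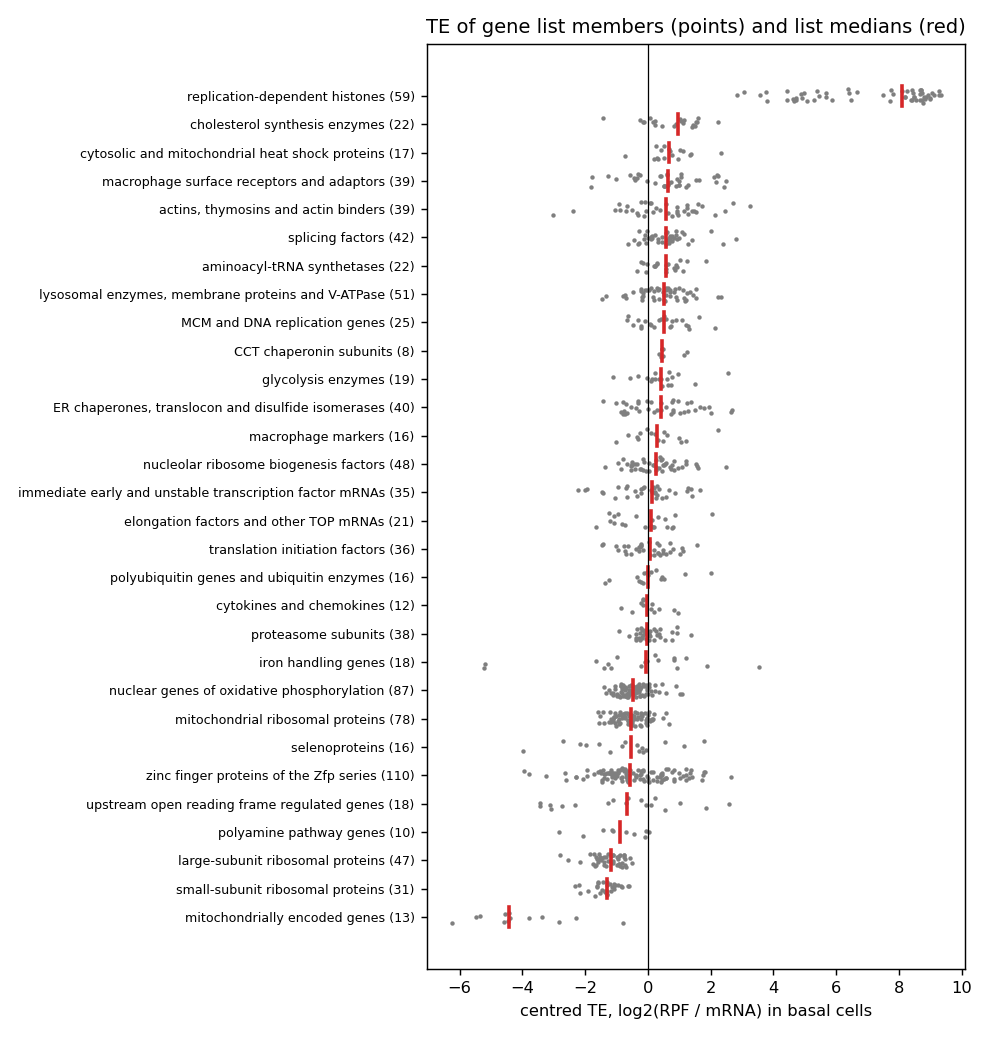
Centred TE (log2 of RPF over mRNA) of each tested member of the gene lists with at least 5 members (points) and list medians (red bars), ordered by median with the number of members in brackets. Histones lie highest, and mitochondrially encoded genes and both ribosomal protein lists lie lowest.

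Ferritin and the transferrin receptor lay at opposite ends of the iron genes. In background, iron regulatory proteins bind hairpins in mRNAs when iron is scarce: in the 5′ end of ferritin mRNAs they block initiation, and in the 3′ end of the transferrin receptor mRNA they protect it from decay. Fth1, the ferritin heavy chain that oxidises and stores iron, had 815 and 836 CPM in RPF, against 25280 and 27010 CPM in mRNA. Its TE was -5.19 ± 0.09, a ratio 36.5-fold lower than that of the median gene (limma adjusted p = 4.63e-13). Ftl1, the ferritin light chain, had 166 and 214 CPM in RPF, against 5917 and 6432 CPM in mRNA (TE -5.23 ± 0.13, limma adjusted p = 9.42e-12). The RPF and mRNA libraries of both genes were far apart and did not overlap. Ftl1-ps1, a pseudogene of Ftl1 with which reads can be shared and which was chosen after its values were seen, had a TE of -5.32.

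Tfrc, the transferrin receptor that takes up iron, had 758 and 746 CPM in RPF, against 48.1 and 61.7 CPM in mRNA. That is a TE of 3.55 ± 0.18, or 11.75-fold higher than the median gene (limma adjusted p = 4.64e-09). Ireb2, which encodes an iron regulatory protein, had 64.1 and 67.7 CPM in RPF and 12.9 and 16.8 CPM in mRNA (TE 1.88 ± 0.23). Of the 18 tested iron genes 5 passed as higher and 7 as lower, with a median of -0.06, against 26.9% and 23.3% of all genes; the importers Slc11a2 (TE -0.09) and Slc11a1 (TE 0.32) did not pass. The lower ones included Slc40a1, the iron exporter ferroportin (TE -1.65). The list held 0.291% and 0.296% of RPF reads, against 3.24% and 3.47% of mRNA reads. In the treated cells, Fth1 had a TE of -4.15 with LPS and -4.41 with LPS + DEX, and Tfrc one of 3.71 and 3.52.

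**Figure D3:**
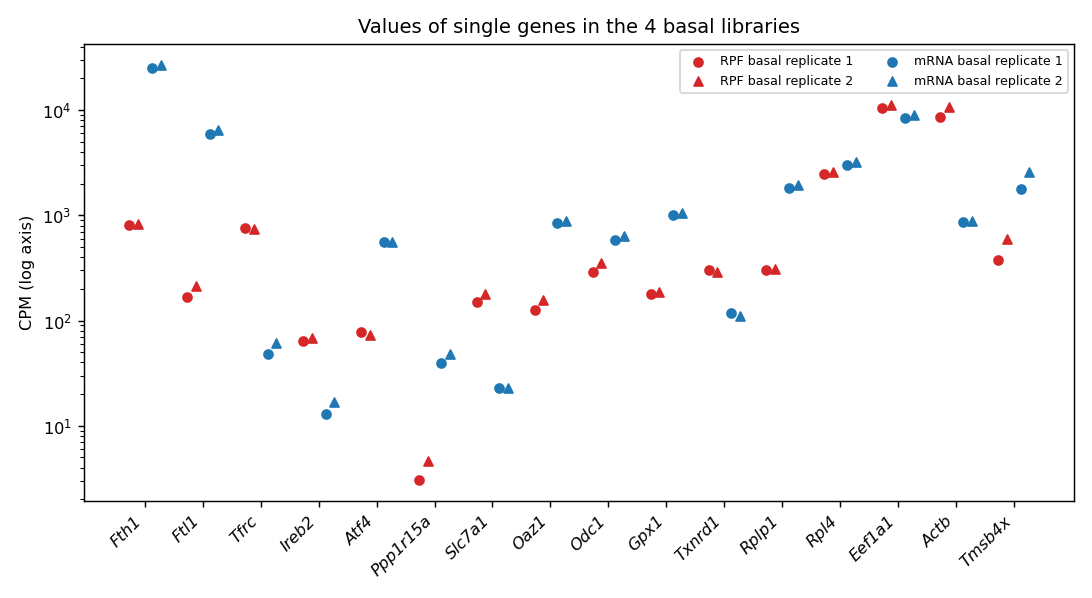
CPM (log axis) of 16 single genes, picked after their values were seen, in the 2 RPF libraries (red, left of each pair) and the 2 mRNA libraries (blue, right). RPF lies below mRNA for Fth1, Ftl1, Atf4, Oaz1 and Gpx1 and above it for Tfrc, Slc7a1 and Actb, with replicates close together.

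Genes known for upstream reading frames, short frames before the main one that capture scanning ribosomes, tended to low TE with clear exceptions. Of 18 tested, 8 passed as lower and 3 as higher, against 23.3% and 26.9% of all genes. The median was -0.66, and -0.47 without mRNA replicate 1. Atf4, the transcription factor of the integrated stress response, had 78.6 and 73.7 CPM in RPF and 563 and 561 CPM in mRNA (TE -3.08 ± 0.14, limma adjusted p = 1.09e-09). Ppp1r15a, a phosphatase subunit that ends that response, had 3.053 and 4.603 CPM in RPF and 39.3 and 47.6 CPM in mRNA (TE -3.42 ± 0.28, limma adjusted p = 5.93e-07). Both stood below their mRNA in every library. For Ddit3 (CHOP), 6 RPF reads and 98 mRNA reads in all gave a ratio 16.1-fold lower than the median gene, with a 95% exact counting interval of 7.12 to 44.8. Slc35a4, whose upstream frame is known to be translated, had a TE of -3.13 ± 0.46. The cationic amino acid transporter Slc7a1 was the exception at the top, with 150 and 179 CPM in RPF and 23.1 and 22.7 CPM in mRNA (TE 2.58 ± 0.19). Reads in upstream and main frames are not told apart in values per gene.

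The polyamine pathway had 7 of 10 tested members lower, 0 higher, and a median of -0.90. Oaz1, the antizyme that degrades ornithine decarboxylase and needs a ribosomal frameshift for its own synthesis, had 125 and 158 CPM in RPF, against 846 and 883 CPM in mRNA (TE -2.82 ± 0.16, limma adjusted p = 1.26e-08). Its relative Oaz2 had a TE of -2.08 ± 0.40. Odc1, ornithine decarboxylase, had 292 and 356 CPM in RPF and 579 and 634 CPM in mRNA (TE -1.12 ± 0.12). The S-adenosylmethionine decarboxylase gene Amd1 passed with all libraries (TE -0.68 ± 0.26, limma adjusted p = 0.0419) and not without mRNA replicate 1. Azin1, the antizyme inhibitor, had a TE of -0.07 ± 0.24 and did not pass.

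Selenoproteins insert selenocysteine at a UGA codon that otherwise ends translation. Of 16 tested, 8 passed as lower and 2 as higher, with a median of -0.54. Gpx1, a glutathione peroxidase, had 180.1 and 186 CPM in RPF, against 1011 and 1060 CPM in mRNA (TE -2.70 ± 0.11, limma adjusted p = 3.49e-10). Selenow had 7.63 and 3.29 CPM in RPF and 65.8 and 104 CPM in mRNA (TE -3.99 ± 0.38). Gpx4, which protects membrane lipids from oxidation, had a TE of -1.54 ± 0.15. On the other side, Selenoi, an enzyme of phospholipid synthesis, had a TE of 1.81 ± 0.33, and Txnrd1, thioredoxin reductase, chosen after its values were seen, had one of 1.16 ± 0.13.

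Mitochondrially encoded genes had a median TE of -4.41, the lowest among the lists with at least 5 members, and 12 of 13 passed as lower. They are translated by the ribosomes of the organelle. mt-Nd1, a complex I subunit, had 103 and 74.97 CPM in RPF, against 5071 and 6769 CPM in mRNA (TE -6.25 ± 0.28, limma adjusted p = 1.48e-09). mt-Co1, a core subunit of cytochrome oxidase, had 974 and 666 CPM in RPF and 13450 and 16380 CPM in mRNA (TE -4.41 ± 0.26). mt-Atp8 was the exception, with 369 and 334 CPM in RPF and 324 and 861 CPM in mRNA (TE -0.79 ± 0.39, limma adjusted p = 0.105); without mRNA replicate 1 it passed as lower. The reading frame of mt-Atp8 overlaps that of mt-Atp6, so their reads may be split. How far the protocol, made for cytosolic ribosomes, captures these footprints was not tested.

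Nuclear genes of oxidative phosphorylation were milder: 49 of 87 passed as lower and 6 as higher, with a median of -0.47. By complex, the lower counts were 26 of 45 for complex I, 5 of 9 for complex III, 7 of 11 for complex IV and 10 of 17 for the ATP synthase, while complex II had 1 lower and 2 higher of 4. Uqcr10, a small subunit of complex III, had 87.8 and 78.9 CPM in RPF and 170.2 and 201 CPM in mRNA (TE -1.35 ± 0.14). Sdha, the flavoprotein of complex II, was at the top with 483 and 498 CPM in RPF and 204 and 193 CPM in mRNA (TE 1.09 ± 0.11). Mitochondrial ribosomal proteins resembled them, with 45 of 78 lower, 1 higher and a median of -0.54; Mrps21 was lowest, with a TE of -1.59 ± 0.18.

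At the high end, replication-dependent histones stood far above all other lists. Of 59 tested genes, 57 passed as higher, against 26.9% of all genes, and all 59 did without mRNA replicate 1. Their mRNAs end in a stem-loop in place of a poly(A) tail, and the mRNA libraries were made from polyA RNA, so the ratio cannot be read as translation alone; the part of polyA selection in it was not tested. The list held 3.52% and 4.57% of RPF reads, against 0.320% and 0.0273% of mRNA reads. The median TE was 8.10 as fitted. It was 7.36 with every mRNA library under 3 reads set to 3 reads, which touched 32 genes, a choice made after seeing the data. In 31 genes both mRNA libraries were at or under 3 reads. The filter took the mean of RPF and mRNA libraries, so these 31 were tested only because of their footprints. For them a call as higher was nearly fixed in advance, and the count of 57 is no support. Hist1h4b had 616 and 819 CPM in RPF and 0 CPM in both mRNA libraries, at least 348-fold higher than the median gene at that limit. Hist2h2be was lowest, at 59.5 and 101 CPM in RPF and 20.3 and 3.25 CPM in mRNA (TE 2.84 ± 0.60, and 4.02 without mRNA replicate 1). Single histone genes are near-identical copies whose reads can be shared.

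By histone class, the median TE with that limit was 5.68 for H1, 4.97 for H2A, 7.75 for H2B, 7.38 for H3 and 7.88 for H4. The 2 members that did not pass, Hist1h1c and Hist1h1e, are linker histones of the H1 class. Hist1h1c had 918 and 1161 CPM in RPF, against 1430.0 CPM in mRNA replicate 1 and 7.04 CPM in mRNA replicate 2. The 10 highest genes by the naming rule were 9 histones and the predicted gene Gm42743, which had 1970 and 2052 CPM in RPF and 0.678 and 3.25 CPM in mRNA.

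Among protein-folding genes, all 8 subunits of the CCT chaperonin, which folds actin and tubulin, passed as higher with all libraries (median 0.46), and 7 did without mRNA replicate 1. Cct6a had 838 and 924 CPM in RPF and 281 and 364 CPM in mRNA (TE 1.25 ± 0.14, limma adjusted p = 8.69e-06). Tcp1 was lowest of the 8 (TE 0.37 ± 0.13, limma adjusted p = 0.0335) and is the one lost without that library. Of 17 heat shock proteins, 11 passed as higher and 1 as lower, with a median of 0.69. Hsp90aa1, the inducible cytosolic Hsp90, had 1815 and 1701 CPM in RPF, against 282 and 324 CPM in mRNA (TE 2.33 ± 0.18, limma adjusted p = 2.62e-07). The mitochondrial pair split: Hspd1 (Hsp60) had a TE of 1.37 ± 0.19 and its co-chaperonin Hspe1 one of -0.73 ± 0.16.

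Genes of the endoplasmic reticulum (ER) also split within 1 complex. Of 40 tested, 21 passed as higher and 10 as lower, with a median of 0.42. Sec61a1, the pore of the translocon, had 501 and 541 CPM in RPF, against 71.2 and 68.2 CPM in mRNA (TE 2.68 ± 0.13, limma adjusted p = 2.72e-09). Its small partner Sec61b had 125 and 129 CPM in RPF and 260.3 and 335 CPM in mRNA (TE -1.42 ± 0.14, limma adjusted p = 2.55e-06). The libraries of the pore subunits lie on opposite sides without overlap. Canx, the lectin chaperone calnexin, had 1873 and 1602 CPM in RPF and 225 and 246 CPM in mRNA (TE 2.67 ± 0.13).

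Splicing factors were high as a group, with 26 of 42 higher, 2 lower and a median of 0.58. Srsf1, a splicing activator, had 314 and 374 CPM in RPF, against 53.6 and 58.5 CPM in mRNA (TE 2.39 ± 0.16, limma adjusted p = 5.75e-08). Ptbp3, a pyrimidine tract binding protein, had a TE of 2.80 ± 0.26, and Srsf7 was the low extreme at -0.63 ± 0.11. Aminoacyl-tRNA synthetases, which charge tRNAs, had 12 of 22 higher, 0 lower and a median of 0.57; Eprs was highest, with 627 and 660 CPM in RPF and 155 and 154 CPM in mRNA (TE 1.84 ± 0.17). Nucleolar factors of ribosome assembly had 18 of 48 higher and 9 lower (median 0.26), against 26.9% and 23.3% of all genes. Nob1, an endonuclease of 18S rRNA maturation, led them (TE 2.49 ± 0.14). Replication genes had 14 of 25 higher and 3 lower (median 0.52), led by Pola1, the catalytic subunit of primase-polymerase (TE 2.14 ± 0.27).

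Cholesterol synthesis and glycolysis had more higher than lower members. Cholesterol synthesis had 13 of 22 higher, 1 lower and a median of 0.97. Hmgcs1, an early enzyme of the pathway, had 70.2 and 85.5 CPM in RPF, against 13.6 and 13.0 CPM in mRNA (TE 2.25 ± 0.26, limma adjusted p = 1.42e-05), and Mvk, mevalonate kinase, was the low extreme (TE -1.44 ± 0.42). Glycolysis had 11 of 19 higher, 2 lower and a median of 0.43 (10 higher and 1 lower without mRNA replicate 1). Hk2, a hexokinase, had 203 and 162 CPM in RPF and 28.5 and 23.8 CPM in mRNA (TE 2.55 ± 0.20). Gapdh had 4301 and 4555 CPM in RPF and 4620.0 and 4894 CPM in mRNA (TE -0.31 ± 0.09, limma adjusted p = 0.0142), a call lost without mRNA replicate 1.

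Actin genes spanned a wide range, with 21 of 39 higher, 10 lower and a median of 0.59. Actb, cytoplasmic β-actin, had 8690 and 10710 CPM in RPF, against 868 and 878 CPM in mRNA (TE 3.26 ± 0.15, 9.56-fold higher than the median gene, limma adjusted p = 2.29e-09). Its RPF libraries lay far above both mRNA libraries. Tmsb4x, thymosin β4, which sequesters actin monomers and was chosen after its values were seen, had 374 and 598 CPM in RPF and 1779 and 2578 CPM in mRNA (TE -2.38 ± 0.22). Within the Arp2/3 complex, which branches actin filaments, Actr2 had a TE of 2.71 ± 0.19 and Arpc1a one of -3.03 ± 0.23.

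Genes of macrophage function were mostly above the median gene. Surface receptors had 22 of 39 higher, 7 lower and a median of 0.65, and lysosomal genes had 29 of 51 higher, 6 lower and a median of 0.53. Itga4, an integrin chain, had 743 and 768 CPM in RPF, against 96.9 and 139 CPM in mRNA (TE 2.49 ± 0.29, limma adjusted p = 1.47e-05). Csf1r, the receptor for the macrophage growth factor CSF-1, had 1104 and 1060.0 CPM in RPF and 462 and 485 CPM in mRNA (TE 0.98 ± 0.12). The signalling adaptor Tyrobp went the other way (TE -1.02 ± 0.10). Lamp2, a major protein of the lysosomal membrane, had a TE of 2.24 ± 0.18, and Fuca1, a lysosomal fucosidase, one of -1.47 ± 0.17.

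Of 12 cytokines, 2 passed as higher and 2 as lower (median -0.02). Without mRNA replicate 1, 1 was higher and 2 were lower, with Il1rn and Tgfb1 lost and Cxcl2 gained. Tnf, the main early cytokine of macrophages, had 58.8 and 48.0 CPM in RPF and 80.0 and 87.7 CPM in mRNA (TE -0.85 ± 0.19, limma adjusted p = 0.00213), and Spp1, osteopontin, had a TE of 0.95 ± 0.27. Of 35 immediate early genes, 8 were higher and 7 lower (median 0.13), near the shares of all genes. Dusp1, a MAP kinase phosphatase, had 7.63 and 5.26 CPM in RPF and 52.2 and 15.7 CPM in mRNA (TE -2.23 ± 0.38, and -1.37 without mRNA replicate 1). Proteasome subunits had 8 of 38 higher and 6 lower (median -0.03), and ubiquitin genes 3 of 16 higher and 2 lower (median 0.00), both below the 50.2% of all genes that passed. Zinc finger proteins of the Zfp series had 34 of 110 lower and 19 higher (median -0.58), against 23.3% and 26.9% of all genes. Without mRNA replicate 1 they had 22 lower and 16 higher (median -0.48), against 19.5% and 22.6%. The non-coding host transcript Zfas1 had 2 RPF reads and 129 mRNA reads in all, a ratio 63.4-fold lower than the median gene with a 95% exact counting interval of 17.2 to 529.5.

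The 10 lowest genes by the naming rule were mt-Nd1, mt-Co3, Pxmp4, Adamts9, Mroh3, Ccdc185, Fbxo17, Map3k10, Gm11032 and the unnamed ENSMUSG00000078493. Pxmp4, a peroxisomal membrane protein, had 9.16 and 11.8 CPM in RPF, against 489 and 809 CPM in mRNA (TE -5.99 ± 0.20, limma adjusted p = 1.01e-10). Several of the others rest on the outlying library: Ccdc185 had 0.763 and 1.97 CPM in RPF, against 2735 CPM in mRNA replicate 1 and 1.62 CPM in mRNA replicate 2, and without replicate 1 its TE was -0.38 and did not pass (limma adjusted p = 0.701). Fbxo17 was likewise lost, at -1.24. Adamts9, Mroh3 and Map3k10 passed both ways, with mRNA of 441, 151 and 193 CPM in replicate 1 and 9.20, 8.66 and 34.1 CPM in replicate 2; without replicate 1 their TE was -2.87, -3.46 and -4.12. Outside the histones, Mfge8, a secreted bridge to dying cells, chosen after its values were seen, had 1622 and 1434 CPM in RPF and 19.7 and 14.1 CPM in mRNA (TE 6.23 ± 0.20).

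The relation of TE to mRNA level was weak and depended on the filter. The mRNA value enters the ratio, so TE was taken from the RPF libraries over mRNA replicate 2 and ranked against levels from other libraries as well. Across 9308 genes, which are not independent replicates, the Spearman correlation was -0.23 with the level in mRNA replicate 2, which is in the ratio. It was -0.21 with the level in replicate 1 and -0.14 with the mean of the 4 treated mRNA libraries, neither of which is in the ratio. CPM values are not scaled by gene length, so these levels are reads per gene. Without the histone, mitochondrial and ribosomal protein lists (9158 genes) the 3 values were -0.20, -0.18 and -0.11.

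In 10 equal bins of genes ranked on the treated mRNA libraries, the lowest bin had a median TE of 0.49 (quartiles -0.40 and 1.42) and the highest one of -0.20 (quartiles -0.97 and 0.43). The 8 bins between had medians from -0.11 to 0.06. The filter acts on the mean of RPF and mRNA libraries, so a gene with little mRNA entered only through its footprints, which bears on the lowest bin and on all these correlations. When genes were kept by treated mRNA alone, a filter added after seeing the data, the correlation was -0.09 at a mean of at least 10 reads there (9090 genes) and -0.07 at 50 reads (5406 genes). The lowest bin then had a median of 0.27 and 0.02, and the highest one of -0.16 and -0.23. The bins between ran from -0.08 to 0.05 and from -0.06 to 0.13, so the highest bin stayed lowest under both filters. Without the 4 lists the correlations were -0.06 and -0.03, and the bins were not recomputed. Apart from the low median of the highest bin, a dependence of TE on mRNA level is therefore not read from these values. Among the 100 genes with the most reads in treated mRNA, 70 passed as lower and 16 as higher. Of these 100, all 45 ribosomal protein genes and all 9 mitochondrially encoded genes were lower, and among the 42 that were neither these nor predicted or pseudogene entries, 16 were higher and 12 lower.

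**Figure D4:**
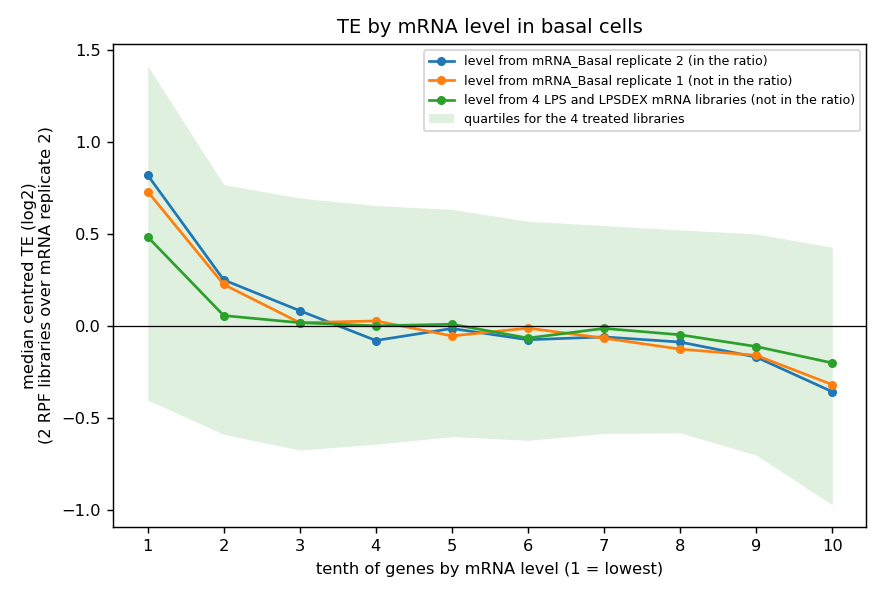
Median centred TE (log2, 2 RPF libraries over mRNA replicate 2) for 10 equal bins of genes ranked by mRNA level, with the level taken from 3 sources (lines) and quartiles for the treated libraries (shading). The lowest bin lies highest for each source and the highest bin lies lowest.

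Values in LPS and LPS + DEX cells come from separate libraries. TE of basal cells had a Spearman correlation across genes of 0.740 with TE in LPS and 0.769 with TE in LPS + DEX; all are from 1 cell line and 1 protocol. The medians of the large-subunit ribosomal proteins were -1.18 in basal, -0.42 in LPS and -0.35 in LPS + DEX cells. For mitochondrially encoded genes they were -4.41, -2.10 and -3.79, in the same order, and for the polyamine pathway -0.90, -0.98 and -0.93. Nuclear genes of oxidative phosphorylation had -0.47, 0.08 and 0.10. These differences between treatments were not tested here.

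**Figure D5:**
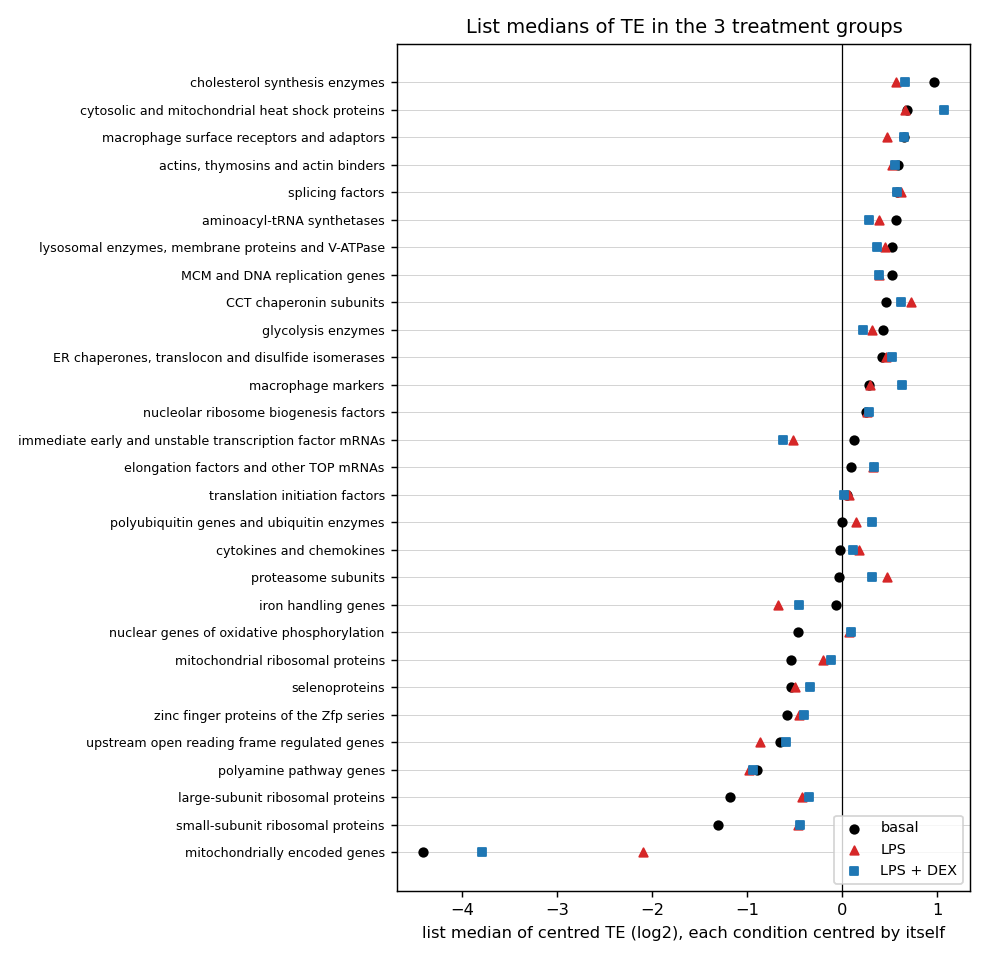
List medians of centred TE (log2) in basal, LPS and LPS + DEX cells, each treatment centred by its own median; the histones are left out for scale. Ribosomal protein lists and mitochondrially encoded genes lie below 0 in all 3.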

How the data were processed

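The deposited values are CPM (reads scaled to a common library total) plus 1 per Ensembl gene and library, as made by the authors; the unit was read from the values, since after 1 is subtracted the low values are whole multiples of 1 read (tolerance 0.1 read). RPF and polyA mRNA libraries were sequenced on an Ion PGM, per the labels. The aligner, the genome build, the annotation, and whether footprints were counted over coding sequence alone were not given in these sources. Symbols matched 9521 of 9621 identifiers. Every listed gene had a deposited value of at least 16.0 in some library, so genes low throughout are absent from the list.

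With R 4.3.3 and limma 3.58.1, log2 of the deposited value was fitted for all 12 libraries in 6 groups (limma-trend), and RPF against mRNA in basal cells was tested and centred by its median. Genes needed a mean of 5.98 CPM, or 10 reads at the median depth, over the 4 basal libraries. The design named a count model for count data; since the file holds CPM, limma-voom on recovered reads was run as an alternative. A value of 3 reads was taken as the detection limit; intervals are exact (95%) and cover counting error only.

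The comparison, the 32 gene lists and the rule for named genes were chosen with earlier results of these data known. Named genes are the 10 highest and 10 lowest that passed without overlap and with 10 reads, up to 4 members and the opposite extreme of each list, and a fixed set, of which Malat1, Neat1 and Gas5 were not tested. Of 14 alternatives, whose effects the closing section gives, weighting libraries with limma was added after the data were seen, as were the pyrimidine run lengths and windows, the filter on treated mRNA and the limit of 3 reads in every histone mRNA library. Rplp2, Slc11a1, Slc11a2, Il1rn, Tgfb1 and Cxcl2 are named outside the rule, after their values were seen. The fit was tested on simulated data. Sequences are from RefSeq (GRCm38.p6). One result on a single gene is not reported here.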

Additional observations from a re-analysis of the deposited data

Results flagged for a closer look

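For 6 named genes every pairing of an RPF with an mRNA library gave TE on 1 side of the median gene in basal cells. In LPS cells every pairing lay on the other side, and the difference was not tested. Every gene given in this paragraph but Rps15a, which is of the fixed set, was named as an extreme of its list in basal cells. That choice favours values nearer the median gene in other libraries. With LPS, TE was 0.90 for Ndufab1, against -1.40 in basal cells, and 0.33 for Uqcr10, against -1.35. It was 0.51 for Hspe1, against -0.73, and 0.87 for Aimp1, against -0.34. Rps15a had 0.32 with LPS, against -1.38 in basal cells, and Nob1 had -0.10, against 2.49. For 7 genes the same held with LPS + DEX, again untested. TE was then 0.22 for Ndufab1, 0.77 for Hspe1, 0.49 for Aimp1 and 0.0675 for Rps15a. It was 0.13 for Nedd8, against -1.38 in basal cells, 0.11 for Srsf7, against -0.63, and -0.94 for Zfp536, against 2.64. The values of Nob1 with LPS, and of Nedd8, Srsf7 and Rps15a with LPS + DEX, are smaller in size than the 0.21 that centring moved in basal cells. Their side of the median gene is therefore not firm.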

How the results depend on the processing

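Counts of genes that passed stayed within 1.5 times under all 14 alternatives. They ran from 1683 (mean of at least 50 reads) to 3132 (no centring) higher. On the lower side they ran from 1550 (mean of at least 50 reads) to 2336 (median-of-ratios scaling). Only 5370 genes were tested at 50 reads, against 9308 in the main fit, so the low ends are not shares of the same total. With the replicate block 2407 were higher and 2088 lower. Deviations of same-numbered libraries correlated at 0.04 (basal), -0.01 (LPS) and -0.03 (LPS + DEX). Each value rests on a single replicate difference per assay, so whether same-numbered libraries share a culture cannot be told from it. Library weights from limma, added after seeing the data, gave 2287 higher and 1919 lower. These weights were equal within each pair of libraries, so they could not weigh down the outlying library and left every TE unchanged. Of 2301 values of named genes under alternatives, 2215 kept direction and side, 73 lost the call, 8 gained it and 5 reversed: Amd2 (-0.04, -0.16 and -0.0071) and Azin1 (0.0451 and 0.14), neither of which passed; over libraries left out they ran from -0.16 to 0.25 and from -0.22 to 0.0451.

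The 8 lists with at least 60% of 5 or more members called 1 way, a rule set after seeing the values, kept their sign. Without centring their medians moved to -0.98 (large subunit), -1.10 (small subunit), 0.67 (CCT), 0.90 (heat shock), -0.69 (polyamine) and 0.79 (splicing). Median-of-ratios scaling gave -1.25 (large subunit), 0.40 (CCT) and -0.96 (polyamine). At 50 reads they were -1.28 (large subunit), -1.41 (small subunit), 0.37 (CCT), 0.61 (heat shock) and 0.49 (splicing). The histone median was 7.38 with log2(CPM + 2), 8.57 with log2(CPM + 0.5), 8.78 with voom and 7.36 with every mRNA library set to at least 3 reads. The correlation of TE with the level in treated mRNA was -0.14, and -0.0864 and -0.0701 with genes kept by at least 10 and 50 treated mRNA reads, both added after seeing the data. Leaving out 1 basal library at a time gave -1.26 to -1.16 (large subunit), -1.37 to -1.28 (small subunit), 7.84 to 8.35 (histones), -4.59 to -4.14 (mitochondrially encoded), 0.43 to 0.47 (CCT), 0.61 to 0.72 (heat shock), -0.96 to -0.85 (polyamine) and 0.49 to 0.63 (splicing). The iron, proteasome, cytokine, ubiquitin, immediate early, initiation factor and TOP list medians lie within the 0.21 that centring moves, so no direction is given for them. Over both windows and run lengths of 6 to 10, the share of ribosomal protein genes with a pyrimidine run was 45.6% to 100.0%, against 6.53% to 92.8% of all tested genes; at length 6 in 300 bases they were 100.0% and 92.8%. With 3 reads as the limit, levels under 1.97 to 2.29 CPM in RPF and 1.62 to 2.03 CPM in mRNA were not detectable at this depth.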
